A study of Mus musculus with 12 samples.

Results

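The step from 3 to 10 µg/kg of TCDD, the most potent of the chlorinated dioxins, was followed in epithelium of the proximal ileum from male C57BL/6 mice, across every gene in 6 of the 12 RNA-seq libraries of the series. The members are the 3 libraries labelled with a dose of 3 µg/kg and the 3 labelled with 10 µg/kg, and the values are the raw counts per gene. The step was proposed, with results of these data in view, as the one at which Cyp1a1 and Cyp1b1 switch on, so the values of these genes are a description and support nothing further. Mice received TCDD in sesame oil by gavage every 4 days, 7 doses in all, from an age of 28 days, and epithelium was scraped from the proximal ileum at 56 days. Vehicle mice received sesame oil alone and a further group received 30 µg/kg on the same schedule, with 3 libraries in each group, and all groups share the strain, sex, ages and gavage. Both are used here as the levels below and above the step. A scraping holds every cell type of the mucosal surface, so a lower value in these bulk libraries cannot separate fewer cells of a type from less RNA per cell. The labels list each library as a sample of its own without naming the animal behind it, and p-values therefore measure the spread between libraries.

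TCDD binds AhR, the aryl hydrocarbon receptor, a transcription factor held in the cytosol by the chaperone HSP90 and its co-chaperone p23. The bound receptor enters the nucleus, pairs with ARNT and binds dioxin response elements, whose core reads GCGTG on one strand and CACGC on the other. Its best known targets are the cytochrome P450 genes Cyp1a1, Cyp1a2 and Cyp1b1 and feedback inhibitors such as the AhR repressor Ahrr and the ADP-ribosyltransferase Tiparp. In the intestine dietary and microbial ligands also use this receptor, and CYP1A1 in enterocytes clears them.

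The promoters of 3 AhR target genes that rose at this step, and of Tiparp, which did not pass the test, are given so that the core element can be seen in place. Each line is the 250 bases before the RefSeq transcription start (GRCm38.p6), read 5′ to 3′ on the strand of the gene, with GCGTG or CACGC in capitals. Cyp1a1 is at chr9:57697363-57697612 on the + strand, Cyp1b1 at chr17:79715062-79715311 on the − strand, Ahrr at chr13:74292332-74292581 on the − strand and Tiparp at chr3:65528197-65528446 on the + strand.
Cyp1a1: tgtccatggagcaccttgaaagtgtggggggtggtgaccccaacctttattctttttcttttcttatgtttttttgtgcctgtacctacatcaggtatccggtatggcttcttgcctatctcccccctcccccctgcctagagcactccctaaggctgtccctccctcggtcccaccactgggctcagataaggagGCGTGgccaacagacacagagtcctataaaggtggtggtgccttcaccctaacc
Cyp1b1: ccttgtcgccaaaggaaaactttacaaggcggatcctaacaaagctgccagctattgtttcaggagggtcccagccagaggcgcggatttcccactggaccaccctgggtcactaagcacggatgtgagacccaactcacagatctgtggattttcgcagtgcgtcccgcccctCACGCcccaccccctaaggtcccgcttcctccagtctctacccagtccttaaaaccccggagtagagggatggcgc
Ahrr: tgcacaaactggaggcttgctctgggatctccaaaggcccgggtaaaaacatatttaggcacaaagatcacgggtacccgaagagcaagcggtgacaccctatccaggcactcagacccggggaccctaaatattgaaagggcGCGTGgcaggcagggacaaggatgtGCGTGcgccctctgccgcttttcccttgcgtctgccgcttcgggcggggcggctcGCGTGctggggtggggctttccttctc
Tiparp: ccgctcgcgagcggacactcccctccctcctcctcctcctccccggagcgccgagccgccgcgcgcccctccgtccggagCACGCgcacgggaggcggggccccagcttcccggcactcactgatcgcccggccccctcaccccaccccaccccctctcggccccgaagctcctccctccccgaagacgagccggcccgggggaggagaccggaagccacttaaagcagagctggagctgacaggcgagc
Cyp1a1 holds 1 match that begins 54 bases before its start, Cyp1b1 holds 1 at 76 bases, and Tiparp holds 1 at 170 bases. Ahrr holds 3, at 107, 82 and 27 bases. Among all 27025 genes with a promoter in the RefSeq table, 8338 (30.9%) held at least 1 match of either strand in a window of this length. Of the 25 genes that passed the test below, 18 had an entry and 6 of those held a match (33.3%), and of the 15 listed AhR targets 12 had an entry and 6 held one (50%). A match is a string of letters in this window, and its absence says nothing of elements elsewhere. For Cyp1a1 the GENCODE gene model begins upstream of the RefSeq start, so the window lies inside that model.

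The 6 libraries held between 13713866 and 16033628 counts in genes. A level is given in CPM, the usual depth-scaled count, with library sizes adjusted by the trimmed mean of M-values, and 3 counts in a library, taken as the lower limit of detection, equal between 0.187 and 0.219 CPM before that scaling. Libraries of the same dose correlated at between 0.974 and 0.988 across genes on the log2 scale, and libraries of different dose at between 0.972 and 0.984. The summed level of 9 epithelial markers (Epcam, Krt19 and others) lay between 9767 and 12361 CPM at 3 µg/kg and between 10268 and 11152 CPM at 10 µg/kg, and none of the 9 passed the test. Genes known from particular lengths of intestine set the libraries apart, as described with Car1 and Fabp6 below. Replicate 1 of each dose also held a different phase of the circadian clock from replicates 2 and 3, as described with Cubn below.

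Among 15823 genes tested, 25 differed between 10 and 3 µg/kg at an adjusted p under 0.05 and at least 1.5-fold (0.158%), of which 23 were higher at 10 µg/kg (0.145%) and 2 were lower (0.0126%). The test was edgeR's quasi-likelihood test with Benjamini-Hochberg adjustment, fitted over all 12 libraries. The median log2 change of all genes tested was -0.02, with 46.0% of genes above 0. At an unadjusted p under 0.05 there were 303 higher genes (1.91%) and 219 lower (1.38%), and the values of the doses did not overlap for 609 genes higher at 10 µg/kg (3.85%) and 672 lower (4.25%). All 25 genes that passed, Cyp1a1 and Cyp1b1 included, had doses that did not overlap. Of the 25, 23 are protein-coding, 1 is a pseudogene and 1 a transcript still to be experimentally tested. The steps on either side were of other sizes, with 36 genes between vehicle and 3 µg/kg (0.228%, 9 higher and 27 lower) and 439 between 10 and 30 µg/kg (2.77%, 343 higher and 96 lower). These comparisons share the 3 and 10 µg/kg libraries with the one described here, so each gene's own values are set side by side.

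**Figure D1:**
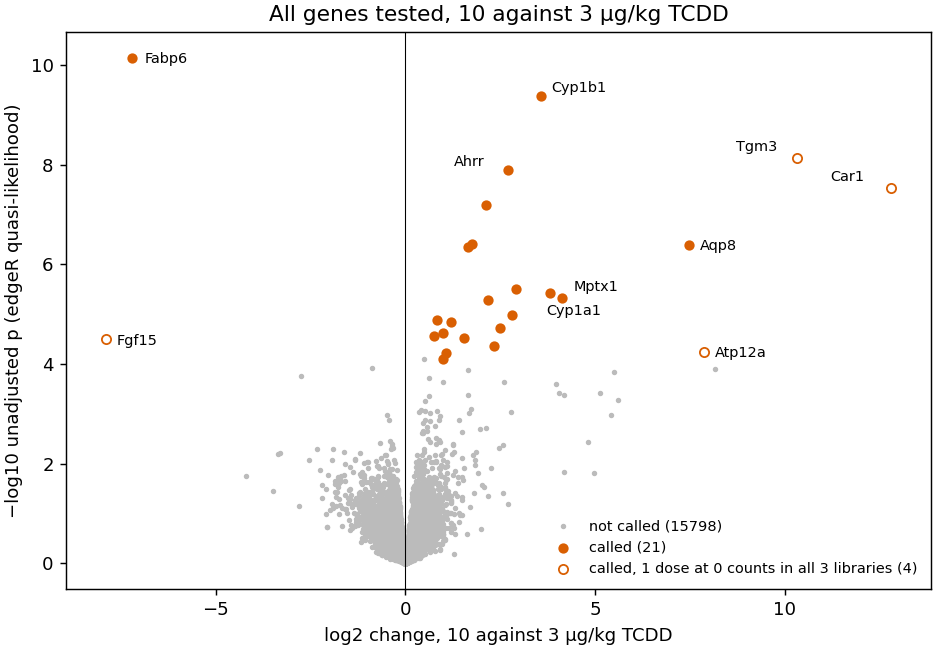
Log2 change from 3 to 10 µg/kg (x axis) against −log10 of the unadjusted edgeR p (y axis) for each of 15823 genes, in orange for the 25 that passed the test, hollow where 1 dose had 0 counts in all 3 libraries and the fitted change is not a bound. The 23 higher genes lie to the right and Fabp6 and Fgf15 alone lie to the left.

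Cyp1a1 and Cyp1b1, both P450 enzymes that oxidise planar aromatic compounds, and Ahrr, which competes with AhR for ARNT, were the AhR genes that rose. Of 15 listed AhR targets 14 could be tested, and 3 of them passed, all higher, against 0.145% of all genes tested. Cyp1a1 and Cyp1b1, for which the step was chosen, are among the 3. The median log2 change of the 14 was 0.40, against -0.02 over all genes tested, with 13 higher and 1 lower by sign. Without Cyp1a1 and Cyp1b1 there remained 12 tested targets with a median log2 change of 0.33, of which 1 (Ahrr) passed. At an unadjusted p under 0.05, 5 of the 12 were higher, against 1.91% of all genes tested. The summed level of the list lay in order of dose without overlap, from 1608 to 1881 CPM in vehicle through 1980 to 2050 CPM at 3 µg/kg and 3273 to 3508 CPM at 10 µg/kg to 4987 to 5262 CPM at 30 µg/kg. Without those 2 genes the sums overlapped, at 1857 to 1976 CPM at 3 µg/kg and 1888 to 2450 CPM at 10 µg/kg.

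Cyp1a1 (ENSMUSG00000032315, chr9:57687928-57703824, + strand, GRCm38) stood at 141, 68.8 and 22.2 CPM in replicates 1, 2 and 3 at 3 µg/kg, and at 1333, 1019 and 872 CPM at 10 µg/kg. The spread was much wider at 3 µg/kg, where the lowest library lay within the vehicle range of 19.0 to 27.5 CPM and the highest was above it. The mean rose 13.9-fold, from 77.4 ± 60.0 to 1075 ± 235 CPM (SD, n = 3), or by 3.80 ± 0.49 on the log2 scale, where ± is the standard error here and for every log2 change that follows. From vehicle to 3 µg/kg its log2 change was 1.74 ± 0.46 (adjusted p = 0.208, edgeR), and from 10 to 30 µg/kg it was 1.47 ± 0.44 (adjusted p = 0.0795, edgeR). The size of the change rested in part on replicate 1 of 3 µg/kg, without which it was 4.57 ± 0.43. Replicate 1 stood apart in the circadian clock, as given with Cubn below, and within replicate 1 the ratio of 10 to 3 µg/kg was 9.43, against 20.8 for the means of replicates 2 and 3.

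Cyp1b1 (ENSMUSG00000024087, chr17:79701537-79715061, − strand) was at 3.17, 5.20 and 3.70 CPM at 3 µg/kg and at 52.4, 45.9 and 45.9 CPM at 10 µg/kg. Replicates were close together at both doses, and the mean rose 12.0-fold from 4.02 ± 1.05 to 48.1 ± 3.71 CPM (SD, n = 3). The log2 change was 3.57 ± 0.21. Vehicle libraries held 1.35 to 2.64 CPM and those of 30 µg/kg 93.0 to 114 CPM, a further rise of 1.10 ± 0.17 on the log2 scale (edgeR adjusted p = 0.00382). All libraries of 3 µg/kg lay above those of vehicle, with a log2 change of 0.86 ± 0.23 that did not pass (edgeR adjusted p = 0.221).

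Ahrr (ENSMUSG00000021575, chr13:74211118-74292331, − strand) stood at 3.62, 4.79 and 4.05 CPM at 3 µg/kg and at 21.9, 29.7 and 30.4 CPM at 10 µg/kg. The 3 µg/kg libraries overlapped the vehicle range of 2.48 to 4.26 CPM. Its mean rose 6.58-fold, a log2 change of 2.71 ± 0.21 (adjusted p by edgeR = 4.99e-05), and all 16 alternatives called it. At 30 µg/kg it rose again to between 42.4 and 58.1 CPM, a log2 change of 0.94 ± 0.18 (edgeR adjusted p = 0.013). Exoc3, a subunit of the exocyst whose gene starts 2385 bases beyond the end of Ahrr on the same strand, went from 37.1 to 40.2 CPM to 49.8 to 56.6 CPM. Its log2 change of 0.50 ± 0.09 passed the p threshold (edgeR adjusted p = 0.0492) and fell short of 1.5-fold, the only gene to do so.

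The sizes of neighbouring steps were compared directly as the difference of their log2 changes, a test that called 13 genes for the step from 3 to 10 µg/kg against the step from vehicle to 3 µg/kg (0.0822%, 9 higher and 4 lower) and 48 genes against the step from 10 to 30 µg/kg (0.303%). Ahrr changed by 2.50 ± 0.39 more on the log2 scale than at the step before (edgeR adjusted p = 0.034) and by 1.78 ± 0.32 more than at the step after (edgeR adjusted p = 0.0401). Neither call was firm. With the library index as a covariate the edgeR adjusted p was 0.0972 and 0.0888, and over 15 alternatives the first call was lost in 9 (adjusted p from 0.0505 to 0.283) and the second in 10 (0.05001 to 0.292), which include leaving out any of the 3 libraries of 3 µg/kg or replicate 2 or 3 of 10 µg/kg. The comparisons share libraries, so the differences for the steps before and after are not independent of each other.

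**Figure D2:**
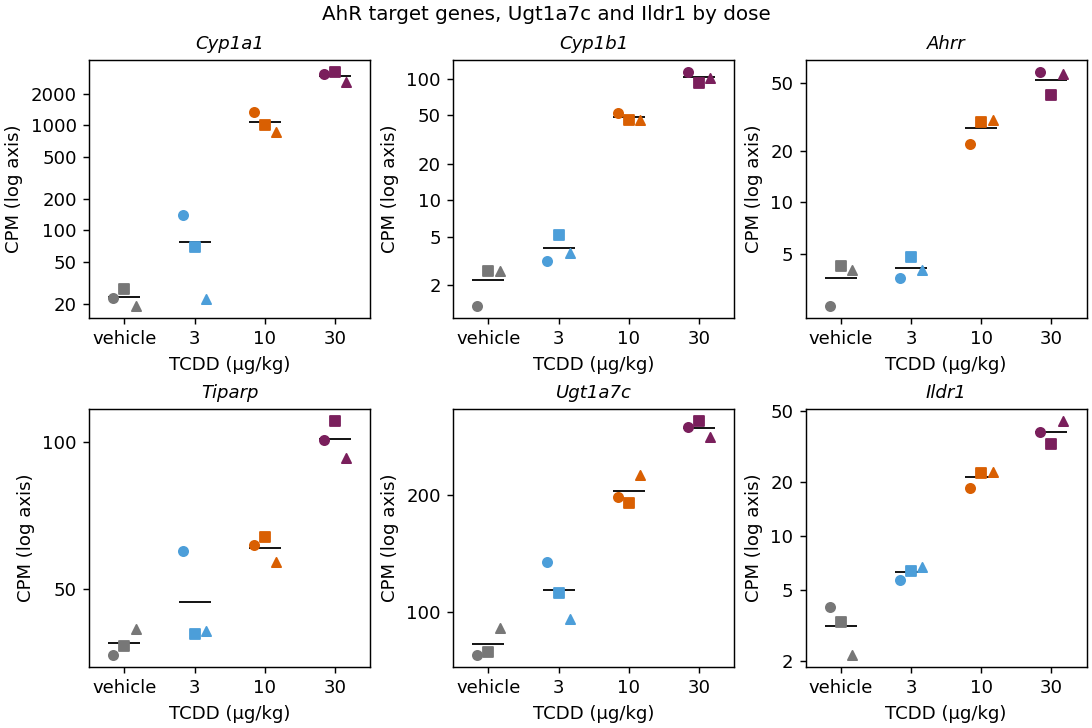
CPM (y axis, log scale) of 4 AhR target genes, Ugt1a7c and Ildr1 in each library of vehicle and of 3, 10 and 30 µg/kg (x axis), with circles, squares and triangles for replicates 1, 2 and 3 and a bar at the mean. At 3 µg/kg Ahrr overlaps the vehicle level and Cyp1b1 lies above it, and at 10 µg/kg both are far higher. Cyp1a1 is spread from 22.2 to 141 CPM at 3 µg/kg.

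The other AhR targets did not pass the test. Tiparp, which marks AhR with ADP-ribose and lowers its activity, was at 59.8, 40.4 and 41.1 CPM at 3 µg/kg and at 61.4, 63.9 and 56.8 CPM at 10 µg/kg, a log2 change of 0.37 ± 0.14 (edgeR adjusted p = 1.00) with overlapping doses. Cyp1a2, the hepatic relative of Cyp1a1, had 20, 50 and 15 counts in vehicle, none in any library at 3 µg/kg, 3, 4 and 7 counts at 10 µg/kg and 27, 20 and 33 counts at 30 µg/kg. Against the limit of 3 counts in each library its mean at 10 µg/kg was at least 1.62-fold higher than at 3 µg/kg (edgeR adjusted p = 0.318). Its order over doses, with the lowest level at 3 µg/kg, differed from that of Cyp1a1 and Cyp1b1. Aldh3a1, an aldehyde dehydrogenase, had at most 2 counts in any library and was not tested. Log2 changes of the remaining targets ran from 0.00 for Htatip2, a transcription cofactor, through 0.30 for the quinone reductase Nqo1 to 0.69 for the glucuronosyltransferase Ugt1a6b, and none passed the test.

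AhR itself and the proteins that hold or pair with it gave no difference that passed the test. Ahr was at 26.9, 26.5 and 23.1 CPM at 3 µg/kg and at 38.8, 26.7 and 29.6 CPM at 10 µg/kg, a log2 change of 0.31 ± 0.17 (edgeR adjusted p = 1.00). Of the 8 genes in the list of receptor and partners, Ahrr was the gene that passed, against 0.145% of all genes tested that were called higher. Log2 changes of Arnt, Arnt2, Ptges3 (p23), Hsp90aa1 and Hsp90ab1 lay between -0.16 and 0.08 and none passed. Ahr shares exon sequence with the antisense gene Gm48236 and Tiparp with 4931440P22Rik, and the strand setting of the counting is not given in the sources used here.

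Among the genes outside the AhR list, 5 rose at this step and were called higher again from 10 to 30 µg/kg, namely Ildr1, Cuedc1, Pmm1, Acta1 and the transcript Gm42826. Ildr1 (ENSMUSG00000022900), a receptor of tricellular junctions, was at 5.66, 6.37 and 6.69 CPM at 3 µg/kg and at 18.6, 22.6 and 22.7 CPM at 10 µg/kg. Its log2 change was 1.77 ± 0.18 (adjusted p by edgeR = 0.000782), and levels ran from 2.15 to 4.00 CPM in vehicle to 32.7 to 44.0 CPM at 30 µg/kg. Every group of Ildr1 libraries lay above the group of the next lower dose. Cuedc1, which carries a ubiquitin-binding CUE domain, went from 3.55 to 4.46 CPM at 3 µg/kg to 8.93 to 9.87 CPM at 10 µg/kg, a log2 change of 1.21 ± 0.18 (edgeR adjusted p = 0.0142). Pmm1, a phosphomannomutase, went from 4.05 to 5.06 CPM to 8.42 to 9.55 CPM, a log2 change of 0.98 ± 0.17 (edgeR adjusted p = 0.0492). Acta1, the skeletal muscle actin, was at 5.36, 4.67 and 3.41 CPM at 3 µg/kg, at 25.9, 25.8 and 41.3 CPM at 10 µg/kg and at 121, 197 and 77.0 CPM at 30 µg/kg. The 3 dose groups did not overlap, and the log2 change at this step was 2.80 ± 0.40 (edgeR adjusted p = 0.0117). Actin genes are nearly identical in sequence, so the assignment of its reads is uncertain, and of the 8 skeletal muscle markers listed, 4 were at 0 counts at 3 µg/kg and 3 at 10 µg/kg. Smooth muscle markers were lower by sign in 8 of 9 (median log2 change -0.90), with 0 calls by edgeR, DESeq2 or limma-voom and none at an unadjusted p under 0.05.

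Genes whose change from 10 to 30 µg/kg did not pass included enzymes of conjugation and steroid metabolism. Ugt1a7c (ENSMUSG00000090124), which attaches glucuronic acid to phenols, was at 134, 112 and 95.5 CPM at 3 µg/kg and at 198, 190 and 225 CPM at 10 µg/kg. Its log2 change was 0.84 ± 0.12 (adjusted p by edgeR = 0.014), and its 30 µg/kg libraries held 281 to 310 CPM, above those of 10 µg/kg by less than 1.5-fold. It shares exons with 8 other Ugt1a genes, and with the antisense gene Gm20528, so counts may be divided among them. Gramd1c, a carrier of cholesterol from the plasma membrane, went from 64.6 to 84.4 CPM to 122 to 127 CPM, a log2 change of 0.75 ± 0.12 (edgeR adjusted p = 0.0225). Dgkh, a diacylglycerol kinase, was at 14.0, 9.34 and 6.81 CPM at 3 µg/kg and at 31.7, 27.6 and 28.7 CPM at 10 µg/kg, a log2 change of 1.55 ± 0.24 (edgeR adjusted p = 0.0234). It shares exon sequence with Gm48998 on the same strand. Hsd11b2, which inactivates glucocorticoids and is known from colon and kidney, went from 3.32 to 4.38 CPM to 7.29 to 8.997 CPM, a log2 change of 1.06 ± 0.18 (edgeR adjusted p = 0.0396).

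The transcript Gm42826 took another course, at 14.3 to 19.97 CPM in vehicle, 2.57 to 3.70 CPM at 3 µg/kg, 9.50 to 10.8 CPM at 10 µg/kg and 18.3 to 23.1 CPM at 30 µg/kg. It was the only gene of the 23 that had been called lower at 3 µg/kg against vehicle (log2 change -2.40 ± 0.17, edgeR adjusted p = 4.27e-05), and its rise at 10 µg/kg was 1.66 ± 0.17 (edgeR adjusted p = 0.000782). The pseudogene Gm15500 went from 9.86 to 13.4 CPM to 21.6 to 24.8 CPM, a log2 change of 1.00 ± 0.15 (edgeR adjusted p = 0.0211).

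**Figure D3:**
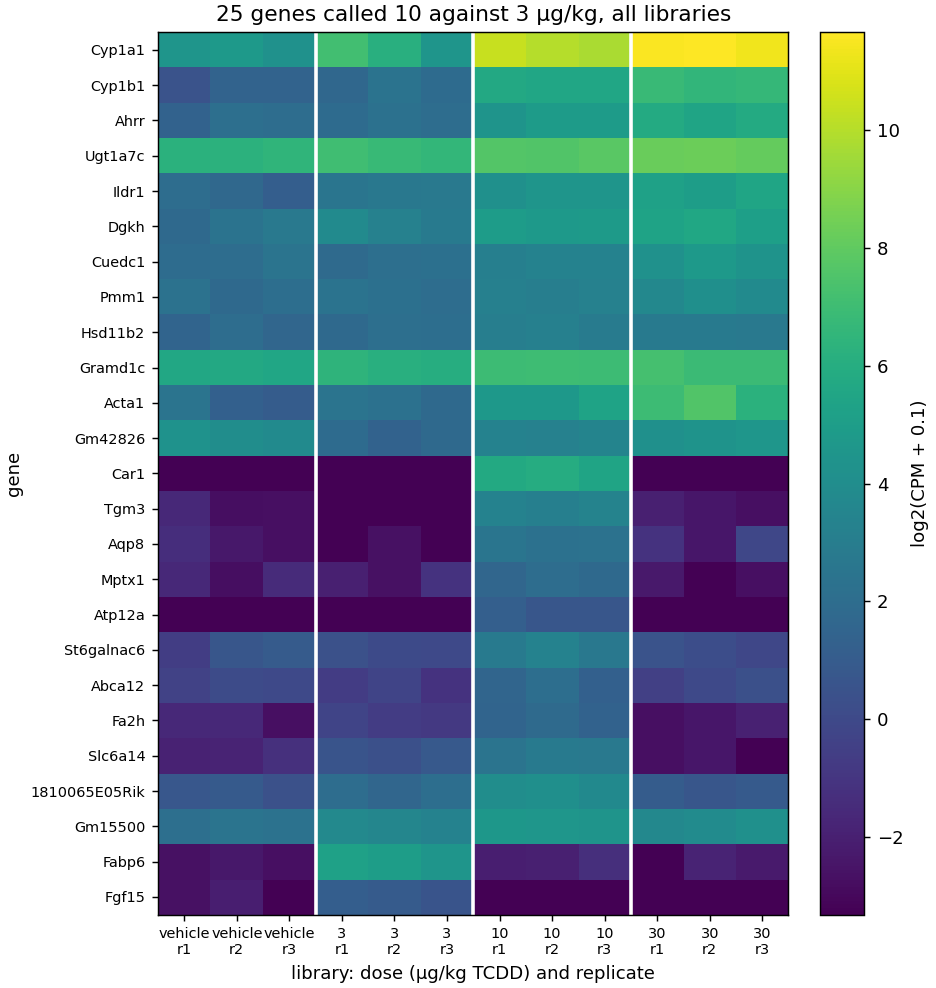
Log2(CPM + 0.1), shown by colour, of the 25 genes that passed the test (rows) in the 12 libraries (columns, ordered by dose). A block of genes is high at 10 and 30 µg/kg, a further block is highest at 10 µg/kg, and Fabp6 and Fgf15 are high at 3 µg/kg alone. In the first block Gm42826 is also high in vehicle (14.3 to 19.97 CPM). In the second Gm15500 is still at 12.7 to 18.3 CPM at 30 µg/kg.

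The 10 µg/kg libraries also held transcripts that were absent or scarce at every other dose. Car1 (ENSMUSG00000027556, chr3:14766216-14808368, − strand), a carbonic anhydrase abundant in colonocytes, had 774, 857 and 714 counts at 10 µg/kg, or 55.7, 62.2 and 43.7 CPM, and no count in any of the 9 libraries of vehicle, 3 and 30 µg/kg. Against the limit of 3 counts in each 3 µg/kg library it was at least 280-fold higher (edgeR adjusted p = 9.24e-05). The groups share no value, and 10 µg/kg alone carried the gene. Tgm3, a transglutaminase that cross-links proteins of cornifying epithelium, was at 9.72, 8.78 and 10.5 CPM at 10 µg/kg, at 0 counts at 3 µg/kg and at most 4 counts in any library of vehicle or 30 µg/kg. It was at least 50.1-fold higher than at 3 µg/kg (edgeR adjusted p = 3.92e-05). Aqp8, a water channel of surface colonocytes, had 78, 65 and 79 counts at 10 µg/kg, against 1 count in all at 3 µg/kg, a ratio of 239 with a 95% counting interval from 42.5 to 9490 (edgeR adjusted p = 0.000782). Atp12a, the colonic H+/K+ pump, had 31, 21 and 25 counts at 10 µg/kg and none in the other 9 libraries, at least 9.15-fold higher than at 3 µg/kg (edgeR adjusted p = 0.0384). It overlaps the antisense gene Gm10873.

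Other genes of this kind were present at 3 µg/kg at lower level. Mptx1, a mucosal pentraxin, was at 0.151, 0.0584 and 0.352 CPM at 3 µg/kg and at 2.95, 3.99 and 3.43 CPM at 10 µg/kg, a log2 change of 4.14 ± 0.54 (adjusted p by edgeR = 0.00614). Slc6a14, an amino acid transporter of colon and distal ileum, rose from 1.36, 1.17 and 1.70 CPM to 5.40, 7.04 and 6.61 CPM, a log2 change of 2.16 ± 0.29 (edgeR adjusted p = 0.00631). It was at most 0.315 CPM in vehicle and at most 0.0889 CPM at 30 µg/kg, so that both doses in between lay above both ends. 1810065E05Rik rose from 2.98 to 4.17 CPM to 13.9 to 17.8 CPM (log2 change 2.12 ± 0.19, edgeR adjusted p = 0.000167), and stood at no more than 1.99 CPM in vehicle and 30 µg/kg libraries. St6galnac6, a sialyltransferase, rose from 0.881 to 1.21 CPM to 6.25 to 9.72 CPM (log2 change 2.92 ± 0.37, edgeR adjusted p = 0.00489). Abca12, a lipid transporter, and Fa2h, which hydroxylates fatty acids of sphingolipids, rose by 2.50 ± 0.37 (edgeR adjusted p = 0.0172) and 2.34 ± 0.38 (edgeR adjusted p = 0.0315) from below 1 CPM to between 2.33 and 4.21 CPM.

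These 10 genes were each called lower again from 10 to 30 µg/kg, as was Gm15500, and in the test of the difference between the steps each of them passed, with edgeR adjusted p from 4.77e-06 for Tgm3 and 1810065E05Rik to 0.00834 for Atp12a and 0.0173 for Gm15500. With the library index as a covariate Atp12a (0.0998) and Gm15500 (0.0774) lost this call. Over 14 or 15 alternatives Atp12a lost it in 3 and Gm15500 in 6 (to 0.134), and Abca12 lost it in 1 (0.0767). These genes are grouped here by a rise to 10 µg/kg and a fall to 30 µg/kg. Passing a test of that same difference was thus largely fixed by the grouping and adds no support. Of 11 listed colonic markers 7 could be tested and 3 were called, all higher (Car1, Aqp8 and Atp12a), against 0.145% of all genes tested. By sign 6 were higher and 1 lower, with a median log2 change of 0.97 against -0.02 over all genes tested. The list was chosen with results of these data known, and Car1, Aqp8 and Atp12a could be tested only through their counts at 10 µg/kg. The count and the median therefore describe the list and support nothing further. Outside the list, Tgm3, Mptx1 and Fa2h also passed the low-count filter only through the 10 µg/kg libraries. Their adjusted p-values therefore add no separate support. The list's summed level lay between 108 and 156 CPM at 3 µg/kg and between 209 and 265 CPM at 10 µg/kg, and it was 111 to 193 CPM in vehicle and 83.5 to 116 CPM at 30 µg/kg. At 0 counts were 6 of the 11 at 3 µg/kg (Car1, Hoxd10, Hoxb13, Scnn1b, Scnn1g and Atp12a) and 1 at 10 µg/kg (Hoxd10). Hoxb13, a homeobox gene of the hindgut, had 9, 5 and 16 counts at 10 µg/kg, too few to be tested. B3galt5, which the list also holds, was expressed at every dose and gave a log2 change of 0.09, and Cyp2c55, a colonic P450, went from 42.9 to 61.2 CPM to 78.7 to 127 CPM without passing (log2 change 0.90 ± 0.32). The part of these colonic transcripts in the other differences was not tested.

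Both genes that fell belong to ileal bile acid handling, in which the transporter SLC10A2 takes bile acids into the enterocyte, FABP6 carries them through the cytosol, SLC51A and SLC51B export them, and the receptor FXR (Nr1h4) switches on the hormone FGF15. Fabp6 (ENSMUSG00000020405, chr11:43596049-43601540, − strand) had 508, 556 and 390 counts at 3 µg/kg, or 38.3, 32.5 and 22.9 CPM, and 2, 2 and 5 counts at 10 µg/kg. It fell by 7.21 ± 0.36 on the log2 scale (adjusted p by edgeR = 1.11e-06). Vehicle libraries had at most 2 counts and those of 30 µg/kg at most 2, so that Fabp6 was abundant at 3 µg/kg alone. Fgf15 had 28, 32 and 24 counts at 3 µg/kg and none at 10 or 30 µg/kg, with 1, 3 and 0 in vehicle, and its mean at 3 µg/kg was at least 8.73-fold higher than at 10 µg/kg (edgeR adjusted p = 0.0238). It overlaps the antisense genes Gm26793 and Gm39119. Slc10a2 was at 16.5, 9.11 and 5.46 CPM at 3 µg/kg, at 2.16, 1.45 and 0.980 CPM at 10 µg/kg and at 0.451 to 2.68 CPM in vehicle, with no overlap between 3 and 10 µg/kg and a log2 change of -2.76 ± 0.52 that did not pass by edgeR (adjusted p = 0.0891) and passed by DESeq2.

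The basolateral exporter and FXR gave values alike at both doses. Slc51a was at 153, 109 and 108 CPM at 3 µg/kg and at 112, 108 and 99.1 CPM at 10 µg/kg (log2 change -0.21 ± 0.13), Slc51b changed by 0.07 ± 0.36 and Nr1h4 by -0.07 ± 0.20, and none of these passed. Of 7 listed genes of bile acid uptake 6 were tested and 2 called, both lower, against 0.0126% of all genes tested. Fabp6 and Fgf15 could be tested only through their counts at 3 µg/kg. The median log2 change of -1.48, against -0.02 over all genes, describes no single member. It lay between the large falls of Fabp6, Fgf15 and Slc10a2 and the small changes of Slc51a, Slc51b and Nr1h4. From vehicle to 3 µg/kg Fabp6 had risen by 8.68 ± 0.40 on the log2 scale (edgeR adjusted p = 3.91e-07), and Fgf15 was called higher too (edgeR adjusted p = 0.0323). In the test of the difference between these steps Fabp6 differed by -15.89 ± 0.57 (edgeR adjusted p = 1.76e-08), and it passed in each of 15 alternatives. Both comparisons use the 3 µg/kg libraries, so the rise and the fall are not separate observations.

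Over all genes in the files, those with at least 10 counts in each library of 1 group and at least 5 times the highest CPM of the other 9 libraries numbered 0 in vehicle, 2 at 3 µg/kg (Fabp6 and Fgf15), 6 at 10 µg/kg (Car1, Tgm3, Aqp8, Atp12a, Mptx1 and Cyp2d34) and 0 at 30 µg/kg. This rule was chosen after the values were seen. Fabp6 and Fgf15 are known from the distal ileum, and Car1, Aqp8 and Atp12a from the colon. The labels name the tissue as proximal ileum in all 12 libraries and say no more of where each scraping began, so a difference of segment and a difference of dose cannot be told apart for these genes.

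**Figure D4:**
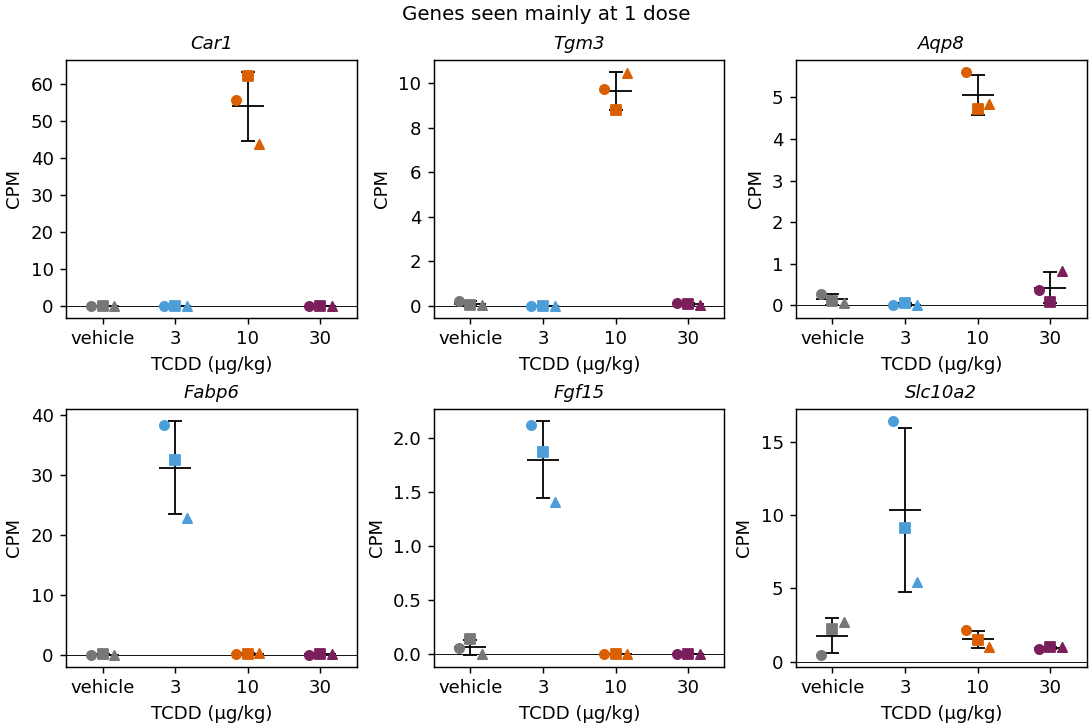
CPM (y axis, linear) of Car1, Tgm3, Aqp8, Fabp6, Fgf15 and Slc10a2 in each library of vehicle and of 3, 10 and 30 µg/kg (x axis), with a symbol for each replicate, a bar at the mean and error bars of 1 SD (n = 3). Fabp6 reaches 22.9 to 38.3 CPM at 3 µg/kg alone and Car1 43.7 to 62.2 CPM at 10 µg/kg alone.

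Other detoxication genes gave few calls. Of 14 genes of phase II conjugation Ugt1a7c was called, against 0.145% of all genes tested that were called higher. The list had a median log2 change of 0.37, against -0.02 over all genes tested. An unadjusted p under 0.05 was reached by 5, all higher, against 1.91% of all genes tested. Among these 5 the sulfotransferase Sult1a1 went from 0.759 to 1.36 CPM at 3 µg/kg to 1.65 to 2.95 CPM at 10 µg/kg. Its log2 change was 1.26 ± 0.36 (edgeR adjusted p = 0.803). Gstm1, a glutathione transferase, gave 0.59 ± 0.23 with overlapping doses. Of 13 tested P450 genes of families 2, 3 and 4 (median log2 change 0.22) and 11 targets of NRF2, which answers oxidative stress (median 0.00), none was called by edgeR, DESeq2 or limma-voom and none reached an unadjusted p under 0.05.

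Genes of cobalamin uptake, the pathway the study asked about, gave no call by edgeR, DESeq2 or limma-voom among 7 tested and none at an unadjusted p under 0.05, with a median log2 change of 0.02. Cubn (ENSMUSG00000026726, chr2:13276338-13491813, − strand), the receptor for intrinsic factor with cobalamin, was at 1722, 464 and 399 CPM at 3 µg/kg and at 707, 221 and 185 CPM at 10 µg/kg. Replicate 1 was far above the others at both doses, and the doses overlapped. The log2 change was -1.21 ± 0.59 (adjusted p by edgeR = 1.00). Without replicate 1 of 3 µg/kg it was -0.20 and without replicate 1 of 10 µg/kg -2.08, and neither passed. Vehicle libraries held 1110 to 1452 CPM, above every library of 10 µg/kg. From vehicle to 10 µg/kg the log2 change was -1.75 ± 0.60 (edgeR adjusted p = 0.193). The paper reports a dose-dependent repression of Cubn in the proximal ileum, over a wider span of doses than the step described here.

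Replicate 1 also differed in the circadian clock. Dbp, a clock output gene that peaks in the late day, was at 90.9, 3.39 and 1.64 CPM at 3 µg/kg and at 64.4, 1.16 and 0.980 CPM at 10 µg/kg. Arntl, which oscillates in antiphase, was at 5.51, 42.3 and 42.9 CPM at 3 µg/kg and at 6.41, 51.7 and 64.5 CPM at 10 µg/kg. Both doses thus held 1 library with high Dbp and 2 with low Dbp. None of 16 clock genes was called between these doses by edgeR, DESeq2 or limma-voom or reached an unadjusted p under 0.05. Vehicle and 30 µg/kg each held 2 libraries with high Dbp and 1 with low Dbp, so comparisons with those groups also differ in clock phase. Compared at like Dbp, Cubn at 10 µg/kg was 0.411 of its level at 3 µg/kg in replicate 1 and 0.471 in the mean of replicates 2 and 3. With a clock score as a covariate its log2 change was -1.10 ± 0.30 (edgeR adjusted p = 0.436), so that the standard error was smaller and the change still did not pass. In vehicle Cubn was at 1110 CPM in the library with low Dbp, beside 1452 and 1185 CPM in those with high Dbp. Cubn also shares exon sequence with the antisense gene Gm13270.

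**Figure D5:**
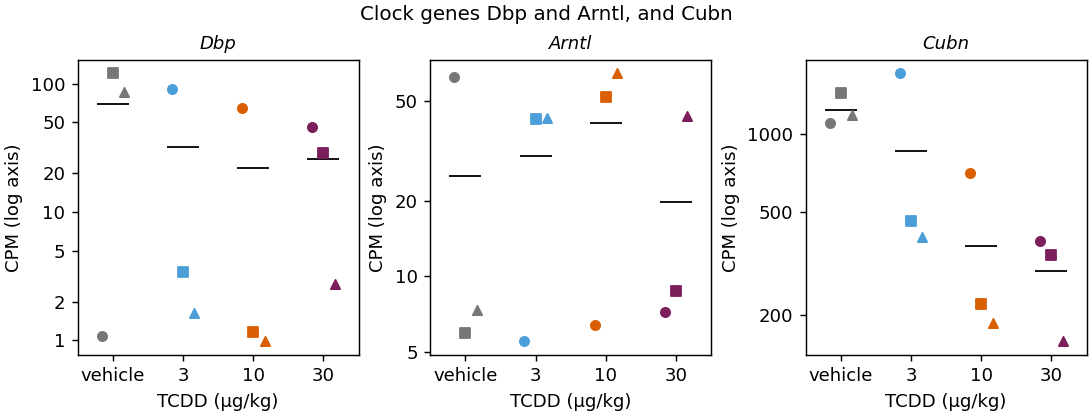
CPM (y axis, log scale) of Dbp, Arntl and Cubn in each library of vehicle and of 3, 10 and 30 µg/kg (x axis), with circles, squares and triangles for replicates 1, 2 and 3 and a bar at the mean. At both 3 and 10 µg/kg replicate 1 has high Dbp and low Arntl, with Cubn at 1722 and 707 CPM, above replicates 2 and 3 of the same dose.

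Amn, which anchors CUBN in the membrane, gave a log2 change of 0.03, the lysosomal exporters Lmbrd1 and Abcd4 gave -0.04 and -0.05, the basolateral exporter Abcc1 gave 0.23, and transcobalamin Tcn2 and its receptor Cd320 gave 0.02 and 0.58. None passed. Of 10 genes of cobalamin trafficking and propionyl-CoA breakdown in the files none was called by edgeR, DESeq2 or limma-voom and none reached an unadjusted p under 0.05, with 9 positive signs and a median log2 change of 0.15.

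The remaining lists of cell types and processes held no gene called by edgeR or limma-voom. Medians of the log2 change were -0.07 for 12 genes of absorptive enterocytes, 0.10 for 7 of goblet cells, 0.00 for 9 of Paneth cells, 0.15 for 12 of enteroendocrine cells, -0.05 for 7 of tuft cells, 0.09 for 6 of stem cells and 0.16 for 10 of proliferation. Over these lists together, 2 genes were higher at an unadjusted p under 0.05 and 2 lower, against 1.91% and 1.38% of all genes tested. B and plasma cell genes were lower by sign in 9 of 9 (median -0.41), fibroblast genes in 6 of 6 (median -0.59) and endothelial genes in 4 of 4 (median -0.29), none at an unadjusted p under 0.05 and with ranges of summed level that overlapped between doses. T cell genes had a median of 0.16 and myeloid genes of 0.00. Of 8 T cell genes 2 were higher at an unadjusted p under 0.05, against 1.91% of all genes tested. Without overlap between doses 2 were higher, against 3.85% of all genes tested.

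Interferon-stimulated genes were lower by sign in 12 of 12 (median -0.16) and cholesterol synthesis genes higher in 10 of 10 (median 0.24), and no member of either list reached an unadjusted p under 0.05. Of the 10 cholesterol synthesis genes 4 were higher without overlap between doses, against 3.85% of all genes tested. The summed level of the 10 was 725 to 778 CPM at 3 µg/kg and 816 to 893 CPM at 10 µg/kg, also without overlap. It was 516 to 699 CPM in vehicle and 636 to 972 CPM at 30 µg/kg, where the range covers both of the lower doses. MHC class II genes had a median of -0.16, and 3 of 6 were lower without overlap between doses, against 4.25% of all genes tested. Their summed level was 2668 to 2870 CPM at 3 µg/kg and 2425 to 2519 CPM at 10 µg/kg. Both ranges lay within the vehicle range of 2240 to 3139 CPM. Medians were 0.02 for 10 antimicrobial and inflammatory genes, -0.01 for 10 immediate early and heat shock genes, -0.02 for 10 nutrient transporters and -0.09 for 9 genes of retinoid metabolism. Genes of PPAR-alpha and fatty acid oxidation had a median of 0.11 over 8 tested. Of 16 genes of pancreatic acinar cells 9 had no count at 3 µg/kg and 3 had none at 10 µg/kg. Their summed level was 4.68 to 13.0 CPM at the lower dose and 12.0 to 15.6 CPM at the higher. It was 15.3 to 18.9 CPM in vehicle and 19.0 to 32.9 CPM at 30 µg/kg, so 10 µg/kg did not exceed the vehicle range. The 6 that could be tested were all higher by sign, with a median log2 change of 2.43 against -0.02 over all genes. The largest changes were those of Pnlip and Cela2a, which had no count at 3 µg/kg. An unadjusted p under 0.05 was reached by 3, against 1.91% of all genes tested that were higher at this level. Without overlap between doses 4 were higher, against 3.85% of all genes tested, while edgeR, DESeq2 and limma-voom called 0.

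Among genes just outside the threshold, Thbs4, a matrix protein, had no count at 3 µg/kg and 1.35 to 2.68 CPM at 10 µg/kg (edgeR adjusted p = 0.0711). Suox, the sulfite oxidase of mitochondria, went from 11.04 to 14.7 CPM to 5.69 to 8.21 CPM with the same adjusted p (log2 change -0.89). Just inside it were Pmm1, Hsd11b2 and Atp12a.

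Of the 25 calls 9 held in every alternative, those of 1810065E05Rik, Ahrr, Aqp8, Car1, Cyp1b1, Fabp6, Gm42826, Ildr1 and Tgm3. Without replicate 2 of 3 µg/kg those 9 were all that was called. With the library index as a covariate 8 of the 25 lost the call, with edgeR adjusted p of 0.345 for Atp12a, 0.0946 for Dgkh, 0.120 for Fa2h, 0.151 for Fgf15, 0.0982 for Gm15500, 0.186 for Pmm1 and 0.0645 for both Hsd11b2 and Ugt1a7c. Cyp1a1 lost it in a fit of the 6 libraries alone and without replicate 2 of 3 µg/kg. Leaving out 1 library at a time took each of the other 16 past an edgeR adjusted p of 0.05 in at least 1 case, with the same direction of change. Fgf15, Atp12a, Fa2h, Hsd11b2 and Pmm1 lost the call whichever of the 6 libraries was left out, with adjusted p from 0.0895 to 0.113, from 0.0886 to 0.211, from 0.0765 to 0.266, from 0.085 to 0.223 and from 0.0815 to 0.306. St6galnac6 and Mptx1 lost it without replicate 2 of 3 µg/kg (both 0.0557). Slc6a14 lost it without replicate 2 of 3 µg/kg or replicate 2 or 3 of 10 µg/kg (0.0527 to 0.0749), Acta1 without replicate 2 or 3 of 3 µg/kg or replicate 3 of 10 µg/kg (0.0546 to 0.0936), and Ugt1a7c without the same libraries as Acta1 (0.0673 to 0.0982). Dgkh (0.0833 to 0.143), Gm15500 (0.0713 to 0.125) and Gramd1c (0.0934 to 0.125) kept the call only without replicate 1 of 3 µg/kg. Abca12 (0.0557 to 0.125) kept it only without replicate 3 of 10 µg/kg and Cuedc1 (0.0607 to 0.0833) only without replicate 1 of 10 µg/kg.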

How the data were processed

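Members and gene lists were chosen with earlier results of these data known. The deposited files hold raw counts of reads per gene, made by the authors from ileal RNA-seq libraries. The submitters' processing notes name FastQC 0.11.3, Trimmomatic 0.33, TopHat2 2.1.0, SAMtools 1.2.0, HTSeq 0.6.1 and DESeq with GRCm38, and the annotation release and strand setting are not given in the sources used here. Counter summary rows were dropped. Symbols and positions came from GENCODE M21, which matched 45229 of 46078 gene IDs (0.749% of counts were unmatched), and 17718 genes had no count. Groups came from the dose in the labels. The counts were filtered with filterByExpr, scaled by TMM and fitted with edgeR 4.0.16 in R 4.3.3 (quasi-likelihood, 4 groups, 12 libraries), a step tested on simulated data. A gene was called at a Benjamini-Hochberg adjusted p under 0.05 and at least 1.5-fold. Named genes were the called genes, the members of the AhR and cobalamin lists and the genes nearest the threshold, and any other gene was named after its values were seen. CPM used TMM-scaled library sizes. Fold bounds used 3 counts in each library, and intervals cover counting error only. DESeq2 1.42.0, limma-voom 3.58.1, other scalings, filters and covariates, and left-out libraries were alternatives. Results of some genes are not reported here.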

Additional observations from a re-analysis of the deposited data

How the results depend on the processing

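The labels give no replicate numbers, and those used here follow the order of listing. Each of the 3 library index sequences occurs once in every dose and falls together with that number, so the index covariate is also a replicate block, and with it 17 genes were called. The numbers did not pair the libraries: deviations from the group means correlated at 0.20, 0.070 and 0.15 for replicates 1, 2 and 3 of 3 and 10 µg/kg, and over the 4 groups 2 of 12 libraries correlated best with one of their own number. Genes called between 10 and 3 µg/kg numbered 25, and other scalings, limma-voom, a mean count of at least 20, the 6 libraries alone and the clock or index covariate gave 17 to 32. Without a low-count filter there were 43, by DESeq2 43, and without replicate 1 of both doses, an alternative chosen after seeing the data, 15, and leaving out 1 library gave 9 to 21. The difference from the step before, 13 genes, moved to 24 without the filter, 6 at a mean count of at least 20, 30 by DESeq2, 2 with the index covariate, 20 with the clock covariate and 3 without replicate 1 of both doses, and leaving out 1 library gave 2 to 8. The difference from the step after, 48 genes, moved to 96 without the filter, 31 at a mean count of at least 20, 137 by DESeq2, 20 with the index covariate and 85 with the clock covariate, and leaving out 1 library gave 15 to 69. The cause was not tested. Scaling moved the median of all genes by less than 0.1 on the log2 scale.

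Over named genes and alternatives, 656 values kept direction and side of the threshold, 95 lost the call and 43 changed sign, all of uncalled genes with log2 changes near 0. Arnt turned to 0.0067 by RLE scaling, 0.0073 by upper-quartile scaling, 0.014 without the filter, 0.020 at a mean count of at least 20, 0.0079 by DESeq2, 0.0024 by limma-voom, 0.020 in the 6 libraries alone, 0.0073 with the clock covariate and 0.067 without replicate 1 of both doses. Htatip2 turned to 0.0070 by RLE scaling, 0.0037 by upper-quartile scaling, 0.012 without the filter, 0.017 at a mean count of at least 20, 0.0080 by DESeq2, 0.017 in the 6 libraries alone and 0.048 without replicate 1 of both doses. That last alternative also turned Arnt2 to 0.025, Ptges3 to -0.094, Hsp90ab1 to -0.039 and Lmbrd1 to 0.059. Leaving out 1 library gave ranges that crossed 0 for Arnt (-0.039 to 0.082), Arnt2 (-0.49 to 0.066), Ptges3 (-0.059 to 0.17), Hsp90aa1 (-0.20 to 0.058), Hsp90ab1 (-0.068 to 0.22), Htatip2 (-0.098 to 0.077), Amn (-0.062 to 0.27), Lmbrd1 (-0.10 to 0.081), Abcd4 (-0.10 to 0.044) and Tcn2 (-0.074 to 0.24). Depth limits genes under 3 counts in a library.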
